A study of Mus musculus with 19 samples.

Results

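Transcripts of 4 chemokine ligands, Ccl5, Ccl3, Ccl4 and Xcl1, were followed in OT-I cells, CD8 T cells whose transgenic receptor recognises an ovalbumin peptide. The ligands were taken by gene symbol: every probe set that the probe-to-gene table assigned to one of them was a member, whatever its signal. The 4 genes themselves were chosen with earlier results of these data known, and the p-values and ranks below make no allowance for that choice. Each ligand had 1 probe set, 98406_at for Ccl5, 102424_at for Ccl3, 94146_at for Ccl4 and 103199_at for Xcl1. They made up 4 of the 12422 probe sets on the array that were not controls, and 4 of the 8252 genes with a symbol of their own. Ccl5, Ccl3 and Ccl4 lie on mouse chromosome 11 and Xcl1 on chromosome 1.

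Total RNA from 19 samples of these cells, recovered from lymph node and spleen of B6 hosts, was hybridised to oligonucleotide arrays. Cells transferred into irradiated hosts gave 8 arrays titled day 5, 4 of day 40 and 3 of day 115, and cells transferred into unirradiated hosts gave 4 arrays. All groups carry the same transgenic receptor, so they report on 1 T cell specificity. Although titled day 5, these samples are described as sorted at day 6, like the unirradiated hosts, and for arrays 1 and 2 of that group the description leaves the cell type out. No unirradiated group was analysed at day 40 or day 115, where the irradiated host and the time after transfer cannot be told apart. The labels do not say which samples came from separate animals, so p-values measure the spread between these samples, which may be technical.

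Chemokines are small secreted proteins that draw leukocytes carrying the matching receptor. Ccl5, also called RANTES, acts through receptors that include Ccr1 and Ccr3, and memory CD8 T cells are known to keep its messenger RNA in store so that protein can be released soon after they meet antigen. Ccl3 and Ccl4, the alpha and beta forms of macrophage inflammatory protein 1, draw monocytes and T cells, and Ccl3 acts in part through Ccr1. Xcl1, or lymphotactin, acts through Xcr1 on the dendritic cells that cross-present antigen. Ccl3, Ccl4 and Xcl1 are made by CD8 T cells mainly after the T cell receptor has been triggered. In an irradiated host with few lymphocytes left, transferred T cells divide without foreign antigen and take on features of memory cells, and the arrays show how Ccl5 and the 3 activation-linked ligands each stood over that course.

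Values are deposited signal intensities in linear units, and array medians lay between 49.5 and 53.7. Differences are given on the scale of log2(signal + 16), which understates changes of dim probe sets. They come from a limma fit over the 8695 probe sets whose mean signal was above 26.4, and adjusted p is by Benjamini-Hochberg over all of them. All 4 ligands passed that filter, Ccl3 and Xcl1 with some arrays close to it. No detection calls came with the table, so whether the dim signals of Ccl3, Ccl4 and Xcl1 stood above background was not tested. The arrays fell into 2 clusters by correlation that cut across the groups. In cluster 1 were 3 arrays of day 5 (numbers 1 to 3), 2 of day 40 (numbers 1 and 2) and the whole day-115 group. Cluster 2 held the other 11, among them every unirradiated array. The labels give nothing that the clusters could be traced to. Cd8a, the co-receptor of these cells, had mean signals of 2940 ± 818 (SD) in the 8 day-5 arrays, 2567 ± 515 in the 4 day-40 arrays, 2079 ± 188 in the 3 day-115 arrays and 2533 ± 249.9 in the 4 unirradiated arrays. Cd3e, part of the CD3 signalling module, averaged 248 at day 5, 226 at day 40, 243 at day 115 and 284.5 in unirradiated hosts.

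Ccl5 was at the level of the unirradiated hosts at day 5 and several-fold above it at day 40 and at day 115, while Ccl3, Ccl4 and Xcl1 passed no test in any comparison. At day 5, the Ccl5 signal of arrays 1 to 8 was 166, 249.6, 612, 141, 373, 309.8, 519 and 654. In the day-40 arrays it was 1735, 2049.6, 1999 and 2855. The day-115 arrays gave 1859.6, 2157 and 2311, and the unirradiated arrays 181, 359.6, 172 and 551. All 7 arrays of day 40 and day 115 were higher than all 12 others, and the day-5 arrays covered the whole range of the unirradiated ones.

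**Figure D1:**
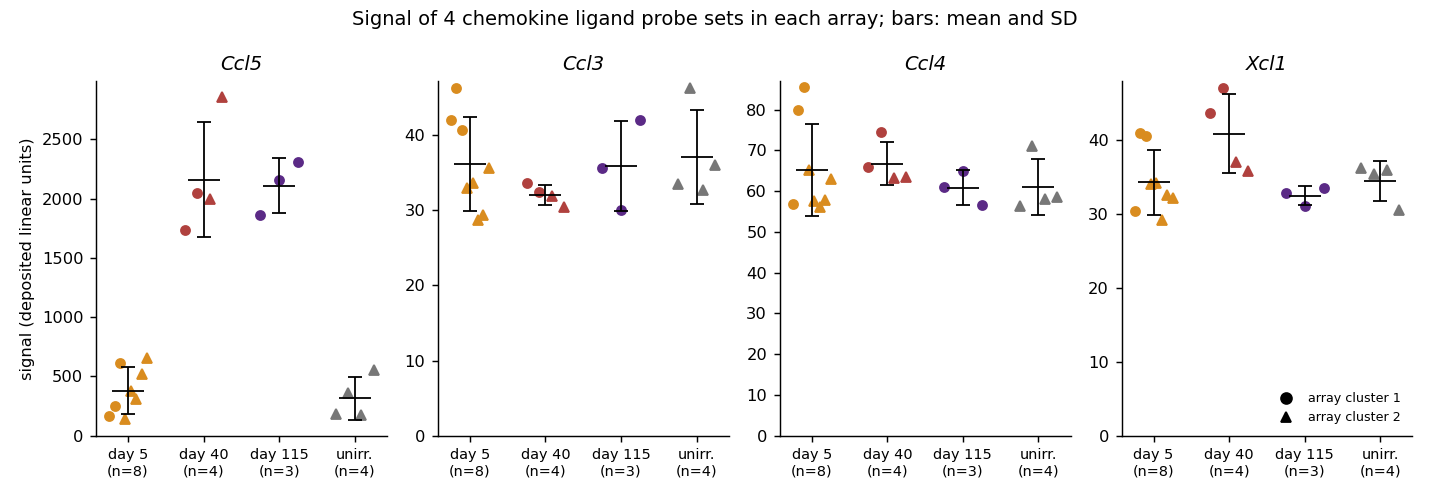
Signal of Ccl5, Ccl3, Ccl4 and Xcl1 (deposited linear units, axes from 0) in each of 19 arrays, in groups day 5 (n = 8), day 40 (n = 4), day 115 (n = 3) and unirradiated (n = 4); circles are arrays of cluster 1, triangles of cluster 2, and bars give mean and SD. The day-40 and day-115 points of Ccl5 lie between 1735 and 2855, above all day-5 and unirradiated points, whereas the groups of Ccl3 and of Ccl4 overlap.

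Against unirradiated hosts, Ccl5 rose at day 40 by 2.84 ± 0.43 on the log2 scale (± SE, limma adjusted p = 0.00124), with a 95% interval of 1.94 to 3.75. The mean signal was 2160 ± 484 at day 40 and 316 ± 179 in unirradiated hosts (SD, n = 4 each), a ratio of 6.84. Ccl5 was the single ligand of the 4 that was called, where 1.5% of all tested probe sets were called in either direction. Its arrays did not overlap with the unirradiated ones, as for 13.8% of tested probe sets, and its rise was the third largest of the 8695. At day 115 the rise was 2.83 ± 0.47 (limma adjusted p = 0.00092), with an interval of 1.85 to 3.8. The mean was 2109 ± 229.5 at day 115 (SD, n = 3), 6.68 times that of the unirradiated hosts. Again Ccl5 alone of the 4 was called, but here 27.9% of tested probe sets were called and 42.7% had groups without overlap. By size its rise was the seventh. Both comparisons share the unirradiated arrays.

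Day 5 did not differ measurably from the unirradiated hosts for any of the 4 ligands. The Ccl5 difference was 0.23 ± 0.37 (limma adjusted p = 0.786), with an interval of -0.56 to 1.01, so that changes of up to about 2.01-fold on the scale of signal + 16 lay within it. None of the 4 was called by limma, none had an unadjusted p under 0.05, and none had groups without overlap, where 0.794% of tested probe sets were called and 3.46% did not overlap. The mean of Ccl5 was 378 ± 197.5 at day 5 (SD, n = 8) and 316 ± 179 in unirradiated hosts (n = 4).

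Between the irradiated groups, Ccl5 was higher at day 40 than at day 5 by 2.62 ± 0.37 (limma adjusted p = 0.00117), with an interval of 1.84 to 3.4. No tested probe set had a larger rise in this comparison, where 1.25% were called and 2.23% did not overlap. Day 115 exceeded day 5 by 2.6 ± 0.41 (limma adjusted p = 0.00084), the third largest rise, where 13.9% of probe sets were called and 10.9% did not overlap. Ccl5 was the single ligand called in both. From day 40 to day 115 no further difference was found: it was -0.01 ± 0.47 (limma adjusted p = 0.992), with an interval of -0.99 to 0.96, and the arrays overlapped. In that comparison none of the 4 ligands was called, 1 had an unadjusted p under 0.05, and 0.092% of tested probe sets were called.

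The rise of Ccl5 was as large with the array clusters taken into account. When the model also held the cluster, Ccl5 differed from unirradiated hosts by 2.99 at day 40 (limma adjusted p = 0.000658) and by 3.11 at day 115 (limma adjusted p = 0.00397). Within cluster 2 alone, day 40 exceeded unirradiated hosts by 3.01 (adjusted p = 0.00535) and day 5 by 2.69 (adjusted p = 0.0263). Within cluster 1 alone, day 115 exceeded day 5 by 2.76 (adjusted p = 0.0237), and day 40 exceeded day 5 by 2.61 with 2 arrays against 3, where limma's adjusted p was 0.247 and 0 of all tested probe sets were called. Within day 5, the 3 arrays of cluster 1 averaged 342 and the 5 of cluster 2 averaged 399. Within day 40, the means were 1892 for the pair in cluster 1 and 2427 for the pair in cluster 2.

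Ccl5 varied far more between arrays before the rise than after it. At day 5 its highest array was 4.63 times its lowest, and in unirradiated hosts 3.21 times, against 1.65 times at day 40 and 1.24 times at day 115. On the log2 scale the SD between arrays was 0.79 at day 5, 0.30 at day 40, 0.16 at day 115 and 0.77 in unirradiated hosts. The share of tested probe sets with a smaller SD was 96.1% at day 5, 70.6% at day 40, 38.6% at day 115 and 99.8% in unirradiated hosts. These spreads are a description and were not compared by a test. Because whole samples were measured, more cells with Ccl5 messenger RNA and more of it per cell cannot be told apart.

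Ccl3 stayed in a narrow band of low signals. Its 8 day-5 arrays ranged from 28.7 to 46.3 with a median of 34.6. At day 40 the signal was 33.6, 32.4, 31.9 and 30.4, at day 115 it was 35.7, 30.04 and 42.0, and in unirradiated hosts 33.5, 46.3, 32.6 and 36.0. The groups overlapped in all 6 comparisons. The difference from unirradiated hosts was -0.03 ± 0.09 at day 5 (limma adjusted p = 0.893), -0.14 ± 0.1 at day 40 (adjusted p = 0.539) and -0.03 ± 0.11 at day 115 (adjusted p = 0.856). The widest reach of any of its intervals was -0.36, in the day-40 comparison. Ordered by mean, unirradiated hosts (37.1) came before day 5 (36.1), day 115 (35.9) and day 40 (32.1), and no neighbours in that order differed beyond their spread.

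Ccl4 passed no test either, and one pair of day-5 arrays stood above the rest. Arrays 2 and 3 of day 5 gave 79.9 and 85.5, and the other 6 lay between 56.2 and 65.2. The day-40 signal was 65.8, 74.4, 63.1 and 63.5, the day-115 signal 61.0, 65.0 and 56.6, and the unirradiated signal 56.3, 71.1, 58.1 and 58.5. Against unirradiated hosts the difference was 0.07 ± 0.09 at day 5 (limma adjusted p = 0.732), 0.11 ± 0.11 at day 40 (adjusted p = 0.655) and 0.00019 ± 0.12 at day 115 (adjusted p = 0.999). Its intervals in these 3 comparisons ran no further than -0.25 and 0.33. Group means were 65.3 at day 5, 66.7 at day 40, 60.9 at day 115 and 61.0 in unirradiated hosts, with neighbours closer than their spread.

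Xcl1 was the one of the 3 whose day-40 values stood somewhat apart, short of the threshold. The 8 day-5 arrays ranged from 29.2 to 41.0 with a median of 33.4. At day 40 the signal was 43.7, 47.1, 37.0 and 35.8, at day 115 it was 32.8, 31.1 and 33.6, and in unirradiated hosts 36.3, 35.4, 36.0 and 30.5. All 4 arrays of day 40 exceeded all 3 of day 115, but they overlapped with day 5 and with unirradiated hosts. Groups without overlap in the day-115 against day-40 comparison were found for 8.4% of tested probe sets. The difference was 0.17 ± 0.08 at day 40 against unirradiated hosts (limma adjusted p = 0.33), 0.18 ± 0.07 at day 40 against day 5 (adjusted p = 0.261) and -0.23 ± 0.09 at day 115 against day 40 (adjusted p = 0.305). The pair of day-40 arrays in cluster 1 averaged 45.4 and the pair in cluster 2 averaged 36.4, and with the cluster as a term the day-40 difference from unirradiated hosts was 0.08 (adjusted p = 0.719). Over the 18 tests of Ccl3, Ccl4 and Xcl1, 0 passed in limma, and 2 had an unadjusted p under 0.05, both of them Xcl1. With the cluster as a term 0 of these 18 passed and 6 had an unadjusted p under 0.05, so the small differences did not all shrink. In cluster 1 alone, both day-40 arrays of Xcl1 (43.7 and 47.1) exceeded all day-115 arrays. Over the alternative settings listed under processing, that day-115 against day-40 difference ran from -0.34 to -0.12 and was not called.

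**Figure D2:**
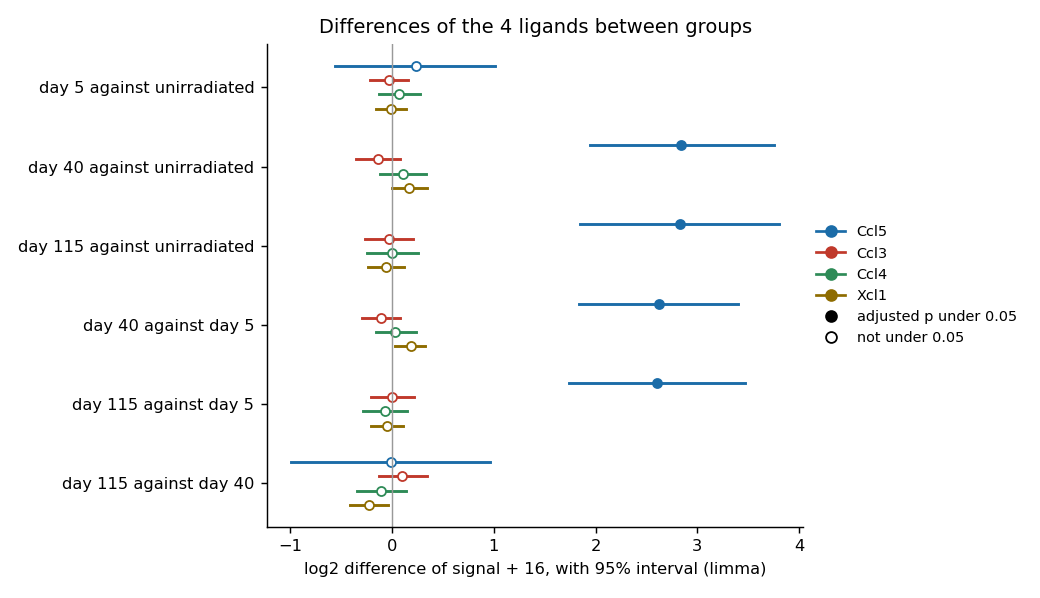
Difference of each ligand between groups on the scale of log2(signal + 16), with its 95% interval from limma, in 6 comparisons; filled points have an adjusted p under 0.05. The 4 filled points are all Ccl5, between 2.6 and 2.84, and every interval of Ccl3, Ccl4 and Xcl1 lies between -0.41 and 0.34.

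Whether Ccl5 moved more than each other ligand was tested on the log2 signal of Ccl5 minus that of the other ligand in the same array, with two-sided exact permutation tests over arrays and Benjamini-Hochberg adjustment over 18 tests. From day 5 to day 40 the difference grew by 2.73 with Ccl3, by 2.58 with Ccl4 and by 2.44 with Xcl1 (exact p = 0.00404 each, the smallest this design can give, adjusted p = 0.0242). In each case the 4 arrays of day 40 lay above all 8 of day 5. For day 115 against day 5 the growth was 2.61 with Ccl3, 2.67 with Ccl4 and 2.65 with Xcl1 (exact p = 0.0121, adjusted p = 0.0364). Leaving out any 1 array put the adjusted p of these exact tests at 0.05 or above, up to 0.0889. Each exact p was then still the smallest that the remaining arrays can give, so the lost call is no test of the growth. Against unirradiated hosts the growth was as large, 2.98 with Ccl3 at day 40 and 2.86 at day 115, and all arrays lay above all unirradiated ones. There the design cannot go below an exact p of 0.0286 at day 40 and 0.0571 at day 115, and the adjusted values of 0.0571 and 0.0857 missed the threshold. At day 5 Ccl5 moved against unirradiated hosts by 0.25 relative to Ccl3, 0.15 relative to Ccl4 and 0.24 relative to Xcl1, with adjusted exact p of 0.726 or more.

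The receptors of the ligands that are reported here passed the test in no comparison. Ccr1 and Ccr3 lay under the filter, with means between 12.3 and 13.6 for Ccr1 and between 18.1 and 19.5 for Ccr3 over the groups. Xcr1, the receptor of Xcl1, averaged 57.4 ± 10.6 at day 5, 54.1 ± 2.56 at day 40, 53.8 ± 3.89 at day 115 and 52.0 ± 3.19 in unirradiated hosts (SD, n = 8, 4, 3 and 4). Ackr1 and Ackr2, scavenging receptors that bind inflammatory chemokines without signalling to migration, differed from unirradiated hosts by -0.05 to 0.06. None of the 3 tested receptors was called by limma in any of the 6 comparisons, and none had an unadjusted p under 0.05. The share of all tested probe sets called ran from 0.092% to 27.9% over these comparisons.

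Other chemokine ligands gave no second case like Ccl5. Of a list of 34, 21 had a probe set of their own and 9 passed the filter. None of the 9 was called in any comparison by limma. Against unirradiated hosts, 0.794% of all tested probe sets were called at day 5, 1.5% at day 40 and 27.9% at day 115. Against day 5 the share was 1.25% at day 40 and 13.9% at day 115, and between day 40 and day 115 it was 0.092%. Where the share is that small, a short list without a call says little. An unadjusted p under 0.05 was found for 2 at day 115 against unirradiated hosts and for 2 at day 115 against day 5, and for 0 in the other comparisons. Their differences from unirradiated hosts ran from -0.15 to 0.20 at day 5, from -0.18 to 0.19 at day 40 and from -0.31 to 0.20 at day 115, with medians of 0.02, 0.03 and 0.02. The medians over all tested probe sets were 0.03, 0.03 and 0.01 in those comparisons.

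Genes that T cell receptor signalling induces, the class in which Ccl3, Ccl4 and Xcl1 are usually counted, mostly did not pass the test. Of 21 tested members, 0 rose and 2 fell at day 5 against unirradiated hosts, 0 rose and 1 fell at day 40, and 1 rose and 4 fell at day 115. Of all tested probe sets, 0.414% rose and 0.38% fell at day 5, 1.16% rose and 0.334% fell at day 40, and 15.1% rose and 12.8% fell at day 115. Egr1, an immediate early transcription factor, fell at all 3 times, by 1.64 at day 5 (limma adjusted p = 0.0223), by 2.19 at day 40 (adjusted p = 0.00343) and by 2.68 at day 115 (adjusted p = 0.000462). Its signal averaged 244 ± 127 at day 5, 151 ± 59.6 at day 40, 97.3 ± 4.27 at day 115 and 713 ± 84.2 in unirradiated hosts. The Egr1 mean was 116 in cluster 1 and 321 in cluster 2 at day 5, and 100 and 202 at day 40. All day-115 arrays were in cluster 1 and all unirradiated ones in cluster 2, so the day-115 fall also spans the clusters. Egr2, a related factor, fell by 0.62 at day 5 (adjusted p = 0.0455) and by 0.86 at day 115 (adjusted p = 0.00327), but passed at neither time with the array cluster as a term (adjusted p = 0.0564 and 0.0791). Nfkbia, the inhibitor of NF-kappa B that NF-kappa B itself induces, fell by 2.43 at day 115 (adjusted p = 0.00158), and Icos, a co-stimulatory receptor, was the other to fall there. Nfkbia too differed between clusters within groups, with means of 98.7 in cluster 1 and 265 in cluster 2 at day 5, and 72.7 and 230 at day 40. It averaged 63.1 at day 115 and 407 in unirradiated hosts. Ier3, an early response gene, was the one that rose at day 115. Ifng, Il2 and Il2ra, which activated T cells express, lay under the filter. Ifng averaged 13.4 ± 3.82 at day 5, 11.9 ± 1.27 at day 40, 14.3 ± 2.63 at day 115 and 17.0 ± 11.7 in unirradiated hosts. The unirradiated mean was set by array 2 with 34.5, the other arrays of that group lying between 10.6 and 11.6. With the array cluster as a term, 2 fell at day 5, 2 at day 40 and 3 at day 115, and 0 rose. Egr2 was not among those of day 5 and day 115. Of all 8695 tested probe sets, that fit called 53 lower at day 5, 37 at day 40 and 110 at day 115. The list's median difference was 0.03 at day 5, -0.07 at day 40 and -0.0033 at day 115.

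Some effector and memory genes of CD8 T cells rose at each of the 3 times, a few of them already at day 5, when Ccl5 was not called. Of 20 tested members, 5 rose and 0 fell at day 5 against unirradiated hosts, 8 rose and 0 fell at day 40, and 15 rose and 2 fell at day 115. The share of all tested probe sets that rose was 0.414% at day 5, 1.16% at day 40 and 15.1% at day 115. With the array cluster as a term 5 rose at day 5, 8 at day 40 and 9 at day 115, and 0 fell at day 115. Of all 8695 tested probe sets, that fit called 87 higher at day 5, 157 at day 40 and 274 at day 115. The median difference of the list was 0.30 at day 5, 0.76 at day 40 and 1.29 at day 115. Klrd1 and Srgn were the 2 that fell at day 115, where the lowest difference of the list was -2.05. Cxcr3, the receptor for interferon-induced chemokines, already rose at day 5, by 1.66 ± 0.2 (limma adjusted p = 0.000423). It averaged 560 ± 166 at day 5, 1028 ± 152 at day 40, 1324 ± 174 at day 115 and 160 ± 22.0 in unirradiated hosts. S100a6, a calcium-binding protein of effector and memory cells, rose by 2.8 at day 5 (adjusted p = 1.19e-05), 2.92 at day 40 (adjusted p = 2.36e-05) and 3.54 at day 115 (adjusted p = 2.42e-06). Lgals1, a galectin of activated T cells, rose by 2.12 at day 5 (adjusted p = 0.0417) and by 3.16 at day 115 (adjusted p = 0.00196). Its day-40 difference of 1.67 ± 0.55 was not called (adjusted p = 0.144), with 1487 and 1291 in the day-40 arrays of cluster 1, 233 and 216 in those of cluster 2, and 122 to 332 in unirradiated hosts. With the cluster as a term the rise of Lgals1 was 1.53 at day 5 (adjusted p = 0.0101) and 1.59 at day 115 (adjusted p = 0.0471). Gzmm, a granule protease, was like Ccl5 not called at day 5, where its difference was 0.29 ± 0.3 (adjusted p = 0.651), and rose by 1.77 at day 40 (adjusted p = 0.0127) and by 2.7 at day 115 (adjusted p = 0.000208). The day-40 signal of Gzmm was 155 and 345 in cluster 1 and 67.1 and 61.7 in cluster 2, against a mean of 25.6 in unirradiated hosts. With the cluster as a term it rose by 1.34 at day 40 (adjusted p = 0.00954) and by 1.84 at day 115 (adjusted p = 0.00491). Gzmb, the granzyme of activated killer cells, was called at no time. It averaged 173 ± 155 at day 5, 90.5 ± 30.6 at day 40, 91.1 ± 9.06 at day 115 and 76.2 ± 13.6 in unirradiated hosts.

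Of 10 tested transcription factors tied to chemokine ligand genes, Stat4 alone rose at day 40 against unirradiated hosts, where 1.16% of all tested probe sets rose, and 3 rose at day 115, where 15.1% did. Stat4, which relays interleukin 12 signals, averaged 275 ± 101 at day 5, 566 ± 86.3 at day 40, 468 ± 43.7 at day 115 and 195 ± 26.6 in unirradiated hosts. Its rise was 1.46 ± 0.26 at day 40 (limma adjusted p = 0.00597) and 1.2 ± 0.28 at day 115 (adjusted p = 0.00684). With the array cluster as a term the day-115 difference was 0.69 (adjusted p = 0.172). Rela, an NF-kappa B subunit, and Irf7, an interferon regulatory factor, were called at day 115 as well, by 1.12 and 1.06, but neither passed with the cluster as a term. Klf13, described as a regulator of CCL5 transcription late after T cell activation in humans, differed by 0.06 ± 0.22 at day 5 (adjusted p = 0.91), -0.24 ± 0.26 at day 40 (adjusted p = 0.675) and 0.35 ± 0.28 at day 115 (adjusted p = 0.356). Eomes, a T-box factor of effector and memory CD8 T cells, differed by 0.05, 0.19 and -0.04 in the same comparisons, with adjusted p of 0.71 or more.

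The genes whose pattern over the 19 arrays was most like that of Ccl5 were Il18r1, Fasl, Prf1, Prss12 and Lpin1. Pearson's r with Ccl5 was 0.919 for Il18r1, 0.913 for Fasl, 0.882 for Prf1, 0.878 for Prss12 and 0.868 for Lpin1. With the 2 arrays farthest from the median of Ccl5 left out, day-40 array 4 and day-115 array 3, r was 0.898, 0.891, 0.848, 0.854 and 0.834. The likeness was lower within groups: after each group's mean was removed, r was 0.544 for Il18r1, 0.286 for Fasl, 0.414 for Prf1, 0.277 for Prss12 and 0.585 for Lpin1. Probe sets of these arrays have close partners in general. The best r of a tested probe set with another gene had a median of 0.909, and 56.6% of probe sets had a lower best r than Ccl5.

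Il18r1, a chain of the interleukin 18 receptor, had signals of 296, 418, 487 and 484 at day 40, of 403, 309 and 360 at day 115, and of 158, 146, 88.9 and 166 in unirradiated hosts. The 8 day-5 arrays lay between 106 and 193, with 6 of them above 160, and overlapped with the unirradiated ones. Fasl, the death ligand of killer T cells, averaged 28.3 ± 4.93 at day 5, 112 ± 19.4 at day 40, 95.5 ± 3.71 at day 115 and 28.7 ± 2.69 in unirradiated hosts. It rose by 1.51 ± 0.1 at day 40 (limma adjusted p = 9.53e-08) and by 1.32 ± 0.11 at day 115 (adjusted p = 1.14e-06). Prf1, the pore-forming protein of killer cells, averaged 98.3 at day 5, 191 at day 40, 168 at day 115 and 103 in unirradiated hosts, and rose by 0.79 at day 40 (adjusted p = 0.00828) and by 0.63 at day 115 (adjusted p = 0.00959). With the array cluster as a term the day-115 difference of Prf1 was 0.50 and not called (adjusted p = 0.132), all day-115 arrays being in cluster 1 and all unirradiated ones in cluster 2. Prss12, a serine protease, rose by 0.9 at day 40 (adjusted p = 7.7e-05) and by 1.4 at day 115 (adjusted p = 1.14e-06). Lpin1, a phosphatidate phosphatase of lipid metabolism, averaged 105 at day 5, 169 at day 40, 217 at day 115 and 109 in unirradiated hosts, and rose by 0.9 ± 0.19 at day 115 (adjusted p = 0.00358). Its day-40 difference of 0.55 ± 0.17 was not called (adjusted p = 0.129), and with the array cluster as a term it was 0.69 and called (adjusted p = 0.0266). None of the 5 was called at day 5 against unirradiated hosts. Because they were chosen for likeness to Ccl5, their time course is a description and no separate evidence.

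**Figure D3:**
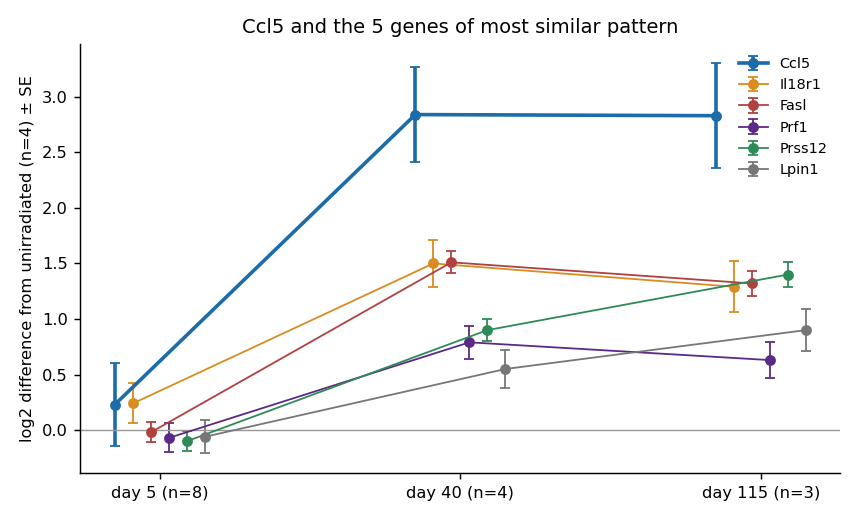
Difference from unirradiated hosts (n = 4) on the scale of log2(signal + 16), with SE from limma, at day 5 (n = 8), day 40 (n = 4) and day 115 (n = 3) for Ccl5 and the 5 genes of most similar pattern; lines join the points of a gene, and points are set side by side for legibility. All 6 genes lie near 0 at day 5, and Ccl5 stands at 2.84 at day 40 and 2.83 at day 115, above the others.

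Ccl3, Ccl4 and Xcl1 had other partners. The gene most like Ccl3 was Nr4a1, the immediate early nuclear receptor Nur77 that T cell receptor signals induce, with r = 0.879 over 19 arrays. Here the likeness held within groups, where r was 0.878. It was 0.796 without the 2 arrays farthest from the median of Ccl3. Those were day-5 array 2 and unirradiated array 2, with 46.3 each for Ccl3 and with 169 and 155 for Nr4a1, the highest of all arrays for both genes. Nr4a1 itself was called in no comparison, with means of 103 at day 5, 88.0 at day 40, 94.1 at day 115 and 104 in unirradiated hosts. The next genes were Mrpl48 (r = 0.740), Cck (r = 0.726), Kcnk7 (r = 0.722) and Ramp3 (r = 0.708). For Ccl3, 32.6% of tested probe sets had a lower best r.

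For Ccl4 the 5 genes were S100a8 (r = 0.893), Camp (r = 0.857), S100a9 (r = 0.827), Exoc7 (r = 0.811) and Nucb1 (r = 0.799). S100a8, S100a9 and Camp are abundant products of neutrophils. Day-5 arrays 2 and 3, the highest for Ccl4, gave 94.2 and 102 for S100a8, and the other 6 day-5 arrays between 28.7 and 42.5. Without those 2 arrays r with Ccl4 was 0.717 for S100a8, 0.697 for Camp and 0.634 for S100a9. Over the 6 tested genes of the neutrophil list the median r with Ccl4 was 0.76, against 0.13 over all tested probe sets. The summed signal of that list, 7 genes on the array, was 306 to 588 at day 5, 344 to 474 at day 40, 366 to 399 at day 115 and 325 to 383.5 in unirradiated hosts, with 512 and 588 in day-5 arrays 2 and 3. None of the 6 was called in any comparison, where 0.092% to 27.9% of all tested probe sets were called. The part of neutrophil transcripts in the Ccl4 signal was not tested. For Xcl1 the partners were Capn5 (r = 0.783), Ngp (r = 0.774), Gtpbp2 (r = 0.773), Sst (r = 0.752) and Cttn (r = 0.743), and 6.0% of tested probe sets had a lower best r. Ngp is a neutrophil granule protein, and the median r of the neutrophil list with Xcl1 was 0.64, against 0.10 over all tested probe sets. With Ccl3 the median r of that list was 0.42, against 0.08 over all tested probe sets, and it was highest for S100a8 with 0.61. After each array cluster's mean was removed, the list's median r was 0.71 with Ccl4, 0.57 with Xcl1 and 0.21 with Ccl3.

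**Figure D4:**
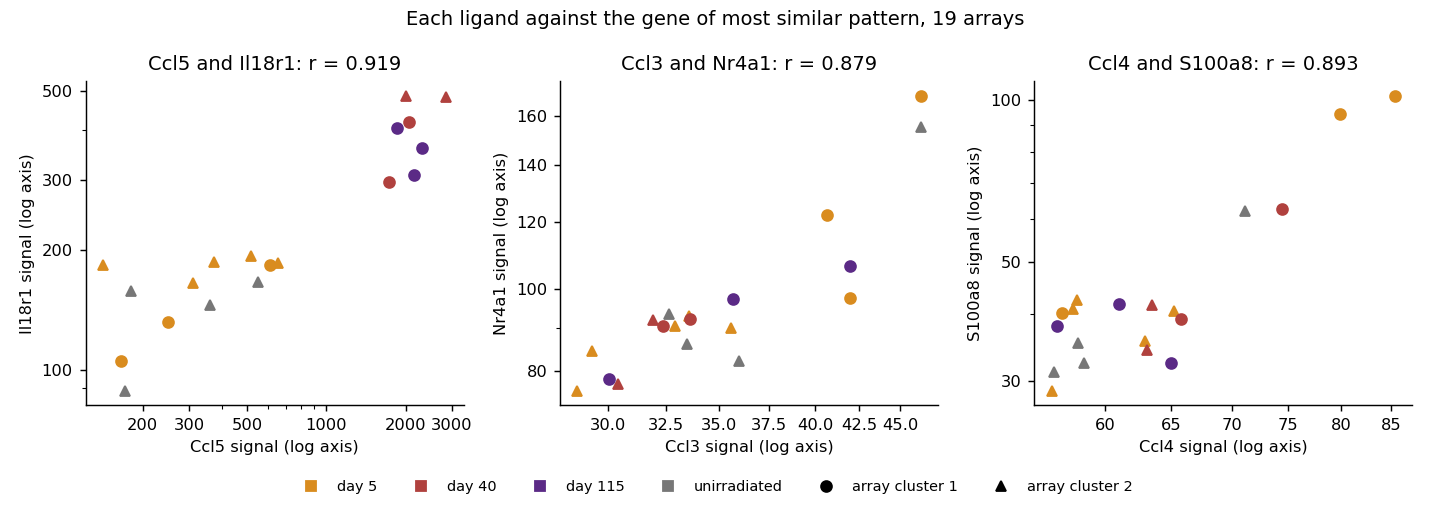
Signal of the gene of most similar pattern against that of Ccl5, Ccl3 and Ccl4 in 19 arrays (both axes logarithmic, deposited linear units); colours mark groups, circles are arrays of cluster 1 and triangles of cluster 2. Ccl5 and Il18r1 form an early and a late set of arrays (r = 0.919), while for Ccl3 with Nr4a1 (r = 0.879) and Ccl4 with S100a8 (r = 0.893) 2 or 3 arrays lie far above the rest.

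Among the ligands, Ccl5 followed none of the others. Its r over 19 arrays was -0.227 with Ccl3, 0.125 with Ccl4 and 0.237 with Xcl1. The closest pair was Ccl4 and Xcl1 with r = 0.680, followed by Ccl3 and Ccl4 with 0.419. The median r of the effector and memory list was 0.60 with Ccl5, -0.02 with Ccl3, 0.24 with Ccl4 and 0.23 with Xcl1. Over all tested probe sets the medians were 0.0, 0.08, 0.13 and 0.10. After each array cluster's mean was removed, the effector and memory list had 0.53 with Ccl5, -0.35 with Ccl3, -0.03 with Ccl4 and 0.03 with Xcl1. The median r of the activation-induced list was -0.23 with Ccl5, 0.46 with Ccl3, 0.30 with Ccl4 and 0.27 with Xcl1. With the cluster means removed these were -0.23, 0.40, 0.28 and 0.18. All these values share the same 19 RNA samples and are given as descriptions.

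Markers of other cells that could make Ccl5 were also read. Of the natural killer cell list, 4 of 8 genes were on the array, Ncr1 and Fcer1g lay under the filter, and neither of the 2 tested genes was called. An unadjusted limma p under 0.05 was found for 1 of the 2 at day 40 and at day 115 against unirradiated hosts. Both had an r above 0 with Ccl5, with a median of 0.36 and 0.61 for Klra7. Over all tested probe sets the median r with Ccl5 was 0.0. After each array cluster's mean was removed, the natural killer list's median was 0.08. The part of these genes in the Ccl5 result was not tested. The list's summed signal was 91.9 to 155 at day 5, 101 to 133 at day 40, 128 to 139.9 at day 115 and 106 to 109 in unirradiated hosts. None of 5 tested myeloid, 3 platelet, 2 CD4 T cell and regulatory T cell genes or 1 mast cell gene was called. Over the comparisons, 0.092% to 27.9% of all tested probe sets were called. Pf4, the platelet chemokine, and Lyz2 lay under the filter. Of 7 B cell genes, 3, Ighm, H2-Aa and Blk, rose at day 115 against unirradiated hosts, where 15.1% of all tested probe sets rose. At day 5 and day 40 none of the 7 passed in limma, with an unadjusted p under 0.05 for 1 at day 5 and 5 at day 40. With the array cluster as a term, 1 of 7 rose at day 40 and 1 at day 115. Of all 8695 tested probe sets, that fit called 157 higher at day 40 and 274 at day 115. The summed B cell signal was 1120 to 2451 at day 5, 1442 to 2907 at day 40, 2357 to 3530.3 at day 115 and 915 to 1076 in unirradiated hosts. All 7 B cell genes had an r above 0 with Ccl5, with a median of 0.53, and of 0.52 after the cluster means were removed. Their part in the Ccl5 result was not tested. Itgax, an integrin of dendritic cells that activated CD8 T cells also carry, rose at day 115 by 0.6 (limma adjusted p = 0.00956), as did Thy1 and Cd2 of the CD8 T cell list, by 1.08 and 1.33. With the cluster as a term Thy1 was still called there (1.01, adjusted p = 0.0411), and Itgax (0.24, adjusted p = 0.295) and Cd2 (0.70, adjusted p = 0.0619) were not.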

How the data were processed

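Messenger RNA was measured in 19 samples on oligonucleotide arrays. The deposited table holds the authors' signal intensity per probe set and array, on a linear scale from 7.68 to 13242.28. The sources used here do not say how the authors made these intensity values, and they were used with no further normalisation because array medians differed by 0.088 on the log2 scale. Groups came from sample titles and, for unirradiated hosts, descriptions. Of 12488 probe sets, 66 controls were left out; of the others 10833 had 1 gene symbol in the probe-to-gene table, 396 several and 1193 none. No symbol changed when updated through its gene identifier.

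Limma 3.58.1 under R 4.3.3 fitted log2(signal + 16) (lmFit, eBayes with an intensity trend), all 19 arrays in 1 model with group as the factor, over probe sets with a mean above the 30th percentile. The threshold was an adjusted p under 0.05. The fit was tested on simulated data. Exact permutation tests used scipy 1.17.1, figures matplotlib 3.10.9. Array clusters came from average linkage on 1 minus Pearson correlation. Named genes were the ligands, their receptors (1 is not reported here), the 5 genes of highest r with each ligand, up to 3 called members per list and comparison with unirradiated hosts, and Cd8a and Cd3e; Icos, Ier3, Gzmb, Ifng, Klf13, Eomes and the markers under the filter were named besides, with their values known. For a gene with several probe sets, the one with the highest mean was used. The ligands and gene lists were chosen with earlier results of these data known. Alternatives were pseudocounts of 1 and 64, no filter and a filter at the 50th percentile, common median and quantile scaling, no intensity trend, only the groups compared, the array cluster, the replicate number, and each array left out. No 2 arrays were identical, and the number of arrays limits the precision.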

Additional observations from a re-analysis of the deposited data

Results flagged for a closer look

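Within groups of 4 to 10 arrays, the highest and the lowest value of each ligand were set against the others. In 2 of 12 such groups a single array stood apart by Dixon's criterion, which chance alone gives in about 1 of 20 groups. Ccl4 in unirradiated array 2 was at 71.14, above the other 3 at 56.3 to 58.5, and the gap made up 0.846 of the group's range on the log2(signal + 16) scale. Xcl1 in unirradiated array 4 was at 30.54, below the other 3 at 35.4 to 36.3, with a gap of 0.851 of the range on that scale. Neither Ccl5 nor Ccl3 had such an array in any group tested.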

How the results depend on the processing

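The Ccl5 rise at day 40 and day 115 kept its direction and its call against unirradiated hosts and against day 5 under every alternative that gave a value, with 1 exception. Within array cluster 1 the day-40 against day-5 difference was 2.61 (limma adjusted p = 0.247, 2 arrays against 3). With 1 array left out the rise was 2.62 to 3.15 for day 40 and 2.61 to 3.14 for day 115 against unirradiated hosts, 2.45 to 2.75 for day 40 and 2.44 to 2.74 for day 115 against day 5. No alternative called Ccl3, Ccl4 or Xcl1. The signs that turned belong to differences near 0 that were not called. With the array cluster as a term, Ccl4 was -0.0012 at day 5 and -0.19 at day 115 against unirradiated hosts, Ccl3 was -0.0026 and Ccl5 0.13 at day 115 against day 40. Within 1 cluster, Ccl4 was -0.02 at day 5 against unirradiated hosts and -0.05 at day 40 against day 5, and Ccl5 was 0.15 at day 115 against day 40. Ccl4 at day 115 against unirradiated hosts was -0.00046 with a pseudocount of 64, -0.0021 with a common median and -0.005 with quantile scaling. Under those scalings Ccl3 at day 115 against day 5 was 0.01 in both, and Ccl5 at day 115 against day 40 was 0.01 and 0.03. With 1 array left out, sign changes occurred within -0.07 to 0.05 (Ccl3) and -0.05 to 0.01 (Xcl1) at day 5 against unirradiated hosts, -0.12 to 0.05 (Ccl3) and -0.04 to 0.06 (Ccl4) at day 115 against unirradiated hosts, -0.01 to 0.08 (Ccl4, day 40 against day 5), -0.09 to 0.08 (Ccl3, day 115 against day 5) and -0.11 to 0.13 (Ccl5, day 115 against day 40).

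The shift of Ccl5 relative to the other ligands for day 40 against day 5 kept its call with any 1 array left out, at 2.57 to 2.86 with Ccl3, 2.42 to 2.72 with Ccl4 and 2.26 to 2.58 with Xcl1 (adjusted exact p = 0.0364), and was not called within single clusters. There it was 2.88 with Ccl3, 2.66 with Ccl4 and 2.4 with Xcl1 in cluster 1, and 2.72, 2.63 and 2.58 in cluster 2. For day 115 against day 5 it was not called in cluster 1 or with 1 array left out: in cluster 1 it was 2.95, 2.98 and 2.9, and with 1 array left out 2.45 to 2.74 with Ccl3, 2.51 to 2.81 with Ccl4 and 2.49 to 2.79 with Xcl1 (adjusted exact p 0.05 to 0.0889). For day 40 and day 115 against day 5, the arrays of a single cluster are too few for an exact p under 0.05. With 1 array left out, each exact p was the smallest that the remaining arrays can give. The lost calls therefore do not test the shift. Signs turned within -0.05 to 0.48 with Ccl4 and -0.00054 to 0.58 with Xcl1 at day 5 against unirradiated hosts, and within -0.23 to 0.04 with Ccl3 and -0.02 to 0.25 with Ccl4 at day 115 against day 40. In cluster 1 the day-115 against day-40 shift with Ccl3 was 0.08.

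Whether the replicate numbers pair the samples could not be told. Of 21 pairs of arrays with the same number, the deviations from group means correlated above 0.1 in 8, with r from -0.666 to 0.763. The lowest r was between array 3 of day 5 and array 3 of day 40, which lie in different clusters. The highest was between array 4 of day 5 and array 4 of day 40, both in cluster 2. The check cannot tell pairing from the clusters. With the replicate number as a block, Ccl5 rose by 2.84 at day 40 and 2.9 at day 115 against unirradiated hosts and differed by -0.18 at day 5. The block also turned Ccl3 to 0.09 and Xcl1 to 0.05 at day 5 and Ccl4 to -0.02 at day 115 against unirradiated hosts, Ccl4 to -0.08 at day 40 against day 5, and Ccl5 to 0.05 at day 115 against day 40, none of them called. It moved the count of called probe sets at day 5 from 69 to 1707, and the array cluster term moved that of day 115 against unirradiated hosts from 2427 to 384. Leaving out 1 array gave 13 to 80 calls at day 5, 54 to 138 at day 40 and 1554 to 2006 at day 115 against unirradiated hosts, 25 to 187 at day 40 and 589 to 1653 at day 115 against day 5, and 3 to 87 at day 115 against day 40. Day 5 against unirradiated hosts had 140 calls with the cluster term, 40 with only these groups and 131 within cluster 2. The 130 calls at day 40 against unirradiated hosts became 273 with only these groups, 407 with the block and 454 within cluster 2. The 109 at day 40 against day 5 became 650 with the cluster term, 46 with only these groups, 35 with the block, and 0 and 324 within single clusters. The 1205 at day 115 against day 5 became 198 with the block, 658 with only these groups, 1865 with no filter and 130 within cluster 1. The 8 at day 115 against day 40 became 3 with the block, 0 with only these groups or within cluster 1, 63 with no filter, 4 with a filter at the 50th percentile, 17 with the cluster term and 20 with a common median. A filter at the 50th percentile left Ccl3 and Xcl1 untested. The cause of these shifts was not tested.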

Other observations

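In the 12 arrays taken early, 8 of day 5 and 4 of unirradiated hosts, Ccl5 varied several-fold while its group means were close. The genes that followed it there were chosen after their values had been seen. After removal of the group means, r with Ccl5 over the 12 arrays was 0.938 for Lgals4, a galectin, 0.919 for Wwp2, a ubiquitin ligase, and 0.804 for Cpox, an enzyme of haem synthesis. For Lgals4 it was 0.932 within day 5 and 0.974 within unirradiated hosts. Lgals4, Wwp2 and Cpox were picked as most alike from all tested probe sets, and such a choice favours high values. Over all arrays, with group means kept, the best r of a tested probe set with another gene had a median of 0.909. How high the best r of other probe sets runs in these 12 arrays was not tested, so these values cannot be called unusual. Of the effector and memory genes, Cxcr3 came closest with 0.732, followed by Il18r1 with 0.591. Over that list the median r was 0.312, and over all tested probe sets -0.011. Neither Gzmb (r = -0.065) nor S100a4 (r = 0.043) followed Ccl5 in these arrays.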
